A study of Mus musculus with 15 samples.

Results

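Nuclear receptors are transcription factors that hold a DNA-binding domain and, in most members, a pocket for a small ligand such as a steroid, thyroid hormone, a retinoid or a bile acid. Many bind DNA as a pair with a retinoid X receptor, and the receptors then bring coactivators or corepressors to the genes they occupy. In fat they set adipocyte differentiation and the response to glucocorticoids, retinoids, thyroid hormone and estrogen. The 41 receptor genes described here are the mouse nuclear receptors listed by symbol, without Nr1d1 and Nr1d2 of the clock and without Nr1h2, Nr1h3, Ppara and Pparg of lipid metabolism. They were found by Entrez ID among the 35794 IDs of the count table, and all 41 had a line there. The rule goes by name and uses no measured value.

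Poly(A) RNA of the perigonadal fat pad was sequenced in C57BL/6 mice that were 14 weeks old at collection. The weight loss mice (4 libraries) had a 60% high-fat diet for 5 weeks, begun at 8 weeks of age, and then chow again for 1 week. The obese mice (5 libraries) began the same high-fat diet at the same age and were not returned to chow, and the lean mice (5 libraries) ate chow. The labels name no genotype, transgene or sex. Ddx3y of the Y chromosome was at 53.9 to 181 CPM (counts per 1000000) in the 14 libraries, and Xist was at 0.995 CPM or less in each. Totals ran between 13924770 and 33807887 counts per library. A further weight loss library held 230 counts and entered no comparison. The labels call the samples independent but name no animals, so the p-values below measure the spread between these samples.

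Some libraries stood apart before any comparison. The summed level of 20 epididymis genes was 4.01 to 67.5 CPM in weight loss libraries, where 7 of the 20 had no count in any of the 4, 12.6 to 8701 CPM in obese libraries and 4.02 to 3575 CPM in lean libraries. Obese replicates 2, 4 and 5 and lean replicate 1 were the 4 richest, and each called receptor is also given without them. The 8 adipocyte markers summed to between 20097 and 37143 CPM in every library, and none of the 8 was at 0 in all libraries of a group. The median log2 deviation from the mean over libraries of 2452 genes with over 8 kb of exon, less that of 2294 genes under 2 kb, ran between -0.33 and 0.41 in weight loss libraries, -0.27 and 0.29 in obese libraries and -0.29 and 0.19 in lean libraries, so that the groups overlapped in this sign of RNA length. CPM here are counts over the library size scaled by TMM factors. Each fold change below is a log2 value with its standard error (±), taken from the quasi-likelihood test of edgeR, with p-values adjusted by Benjamini-Hochberg over the 15208 genes past a filter on low counts and a threshold of 0.05.

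Of the 41 receptor genes, 28 passed that filter and 13 did not. Rxra, the most abundant per kilobase, averaged 54.4 CPM per kb of exon in weight loss fat, 51.7 in obese fat and 65.6 in lean fat. Over all 14 libraries the mean level per kb was 57.4 for Rxra, 21.3 for Nr2f6, 14.2 for Rxrb, 13.5 for Rarg, 10.7 for Nr3c1, 10.4 for Esrra, 9.43 for Nr2f2 and 8.40 for Rxrg. Neighbours in this order such as Rxrb and Rarg, or Nr3c1 and Esrra, had overlapping levels across libraries. Rora, an orphan receptor that binds clock gene elements, was the lowest past the filter at 0.0782 CPM per kb. The exons used for the lengths were merged per gene from GENCODE M21 on mm10.

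**Figure D1:**
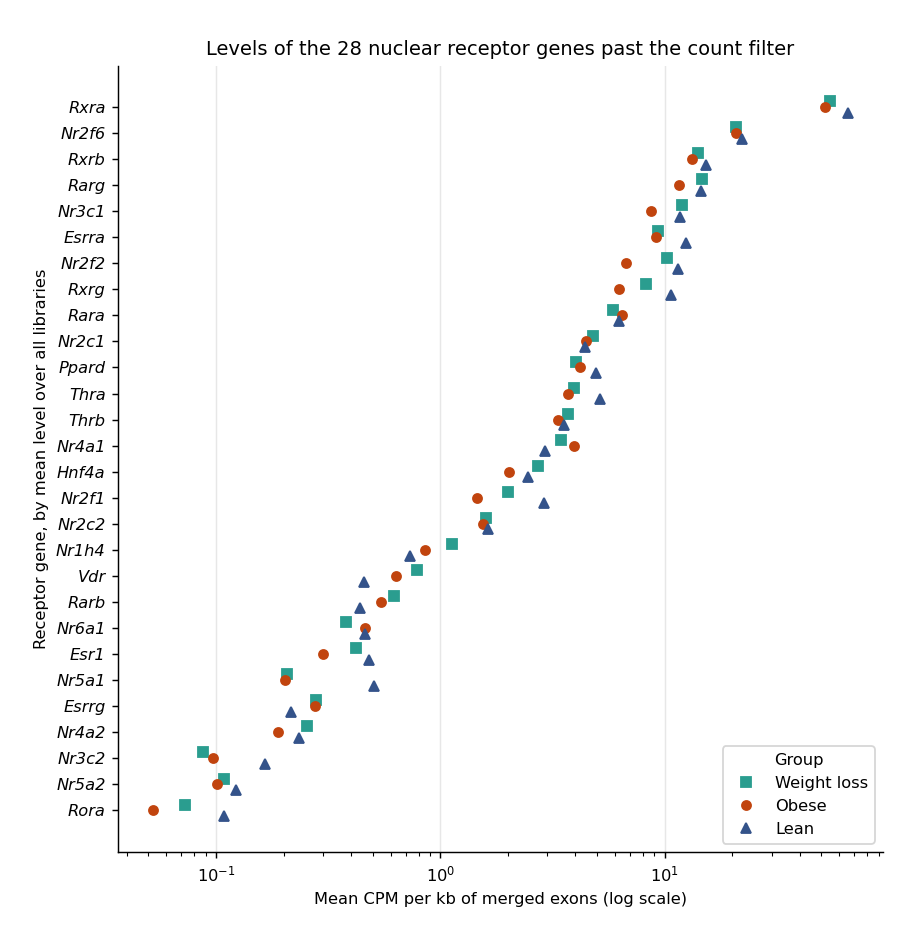
Mean level of each of the 28 receptor genes past the filter, in CPM per kb of merged exons on a log axis, with 1 point per group (4 weight loss, 5 obese and 5 lean libraries). Rxra lies at the top at 54.4, 51.7 and 65.6 CPM per kb in weight loss, obese and lean fat, and Rora at the bottom at 0.0728, 0.0524 and 0.108 CPM per kb.

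The 13 receptor genes below the filter were Nr1h5, Nr1i2, Nr1i3, Pgr, Esr2, Esrrb, Rorb, Nr4a3, Hnf4g, Nr2e1, Nr2e3, Nr0b1 and Nr0b2. Nr0b2, which encodes SHP, the bile-acid induced repressor of liver, had no count in any of the 14 libraries. Nr2e3, a photoreceptor gene, had 2 counts in all, Nr2e1 had 8, Hnf4g had 9 and Nr0b1 had 15. Pgr, the progesterone receptor, had 0 to 13 counts in weight loss libraries, 1 to 4 in obese libraries and 1 to 14 in lean libraries. Esr2, the beta estrogen receptor, had 2 to 8 counts in weight loss libraries, 4 to 12 in obese libraries and 4 to 13 in lean libraries. Nr1i3, the xenobiotic receptor CAR, had 0 to 13 counts in weight loss libraries, 0 to 2 in obese libraries and 0 to 9 in lean libraries, but 74.9% of its exon length lies under exons of Tomm40l on the other strand. Nr4a3, an immediate early orphan receptor, had at most 4 counts in weight loss libraries, 4 in obese libraries and 5 in lean libraries. Nr1i2, the xenobiotic receptor PXR, had 0 to 46 counts over the 14 libraries, Rorb 1 to 14, Esrrb 0 to 12 and Nr1h5 0 to 6. With no filter, 12 of the 13 entered edgeR's test and 0 passed in any comparison (lowest adjusted p = 0.211). At an unadjusted p under 0.05 there were 2 in obese against lean fat (Nr0b1 and Nr1i3), 1 in weight loss against obese fat (Nr1i3) and 2 in weight loss against lean fat (Esr2 and Nr0b1).

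The comparison of obese with lean fat addresses the effect of high-fat feeding on the receptors. The COUP-TF genes Nr2f2 and Nr2f1, orphan receptors that act mostly as repressors, and Rxrg, the gamma form of the shared RXR partner, fell in obese fat, and no receptor rose, where 5.86% of all genes did. These 3 were 10.7% of the 28 tested, against 9.71% of all genes past the filter in either direction and 3.85% in the lower direction. In either direction the share of the receptors was thus near that of all genes. At an unadjusted p under 0.05 there were 6 receptors, again all lower (Nr2f2, Nr2f1, Rxrg, Rxra, Esrra and Esr1), beside 24.8% of all genes in either direction and 11.5% in the lower one. The median log2 fold change of the 28 was -0.26, with 21 below 0, where all genes had a median of -0.02 and 52.2% below 0. In bulk tissue, fewer cells of a type and less RNA per cell cannot be told apart.

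**Figure D2:**
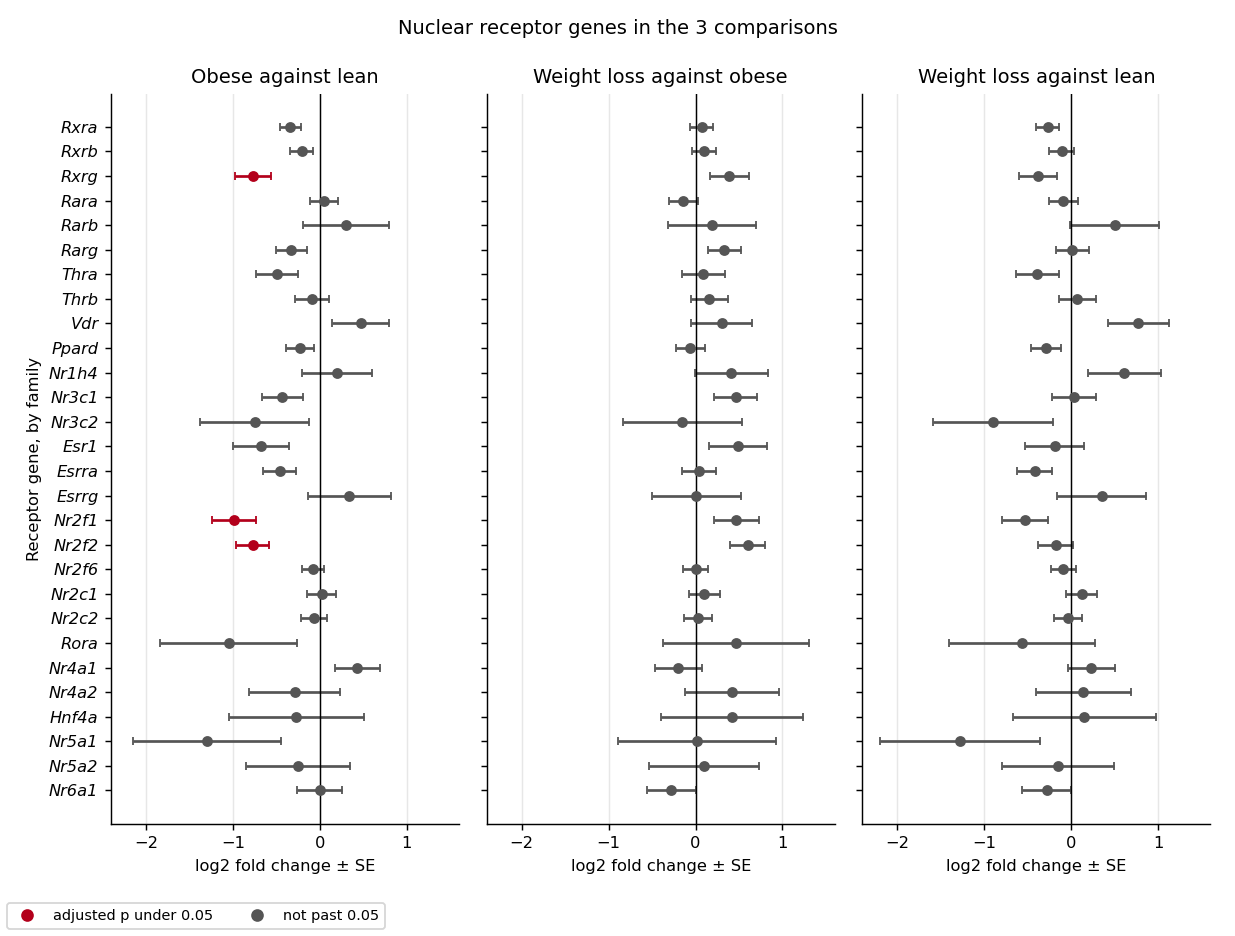
Log2 fold change ± SE of the 28 receptor genes in each of the 3 comparisons (5 obese, 5 lean and 4 weight loss libraries in 1 fit), red where the adjusted p is under 0.05. Nr2f1, Nr2f2 and Rxrg are red in obese against lean fat at -0.99, -0.77 and -0.77, and no point is red in either weight loss comparison.

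Nr2f2 (Entrez ID 11819, a protein-coding gene at chr7:70351946-70366746 of GRCm38.p6 in RefSeq) encodes COUP-TFII, which is known to hold back adipocyte differentiation in culture. It had 73.3, 90.6, 123 and 64.2 CPM in weight loss libraries. In obese libraries it had 70.7, 73.3, 45.1, 46.2 and 54.9 CPM, and in lean libraries 96.0, 80.7, 114, 115 and 91.3 CPM. Every obese library lay below every lean library, while the weight loss libraries ranged across both groups. The means were 87.8 ± 26 CPM after weight loss (SD, n = 4), 58.0 ± 13.3 CPM in obese fat and 99.3 ± 14.8 CPM in lean fat (SD, n = 5 each). Nr2f2 fell to 0.584 times the lean level in obese fat, a log2 change of -0.77 ± 0.19 (edgeR adjusted p = 0.0204). Permuting the libraries in all 252 arrangements gave an exact two-sided p of 0.00794 for log2 CPM, the smallest this design allows. Where the groups do not overlap this p is fixed, and 4.31% of all genes lay without overlap in that direction. Such permutations were run only for the called receptors and are not adjusted.

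Nr2f1 (Entrez ID 13865, a protein-coding gene at chr13:78188971-78198873 of GRCm38.p6 in RefSeq) encodes COUP-TFI and stood at a lower level per kb than Nr2f2. It had 5.81, 8.84, 16.2 and 10.04 CPM in weight loss libraries. In obese libraries it had 7.69, 8.01, 7.27, 4.82 and 9.21 CPM, and in lean libraries 14.2, 13.0, 18.4, 15.1 and 13.1 CPM. The highest obese library was below the lowest lean library, and weight loss replicate 3, at 16.2 CPM, was the only weight loss library inside the lean range. Nr2f1 averaged 10.2 ± 4.35 CPM after weight loss, 7.40 ± 1.61 CPM in obese fat and 14.8 ± 2.23 CPM in lean fat (SD, n = 4, 5 and 5). It fell to 0.502 times the lean level in obese fat, a log2 change of -0.99 ± 0.25 (edgeR adjusted p = 0.0209, exact two-sided permutation p = 0.00794, the smallest possible and again fixed by the lack of overlap). The exons of Nr2f2 and Nr2f1 overlap opposite-strand noncoding genes over 7.46% (B130024G19Rik) and 2.42% (A830082K12Rik) of their length, and whether counting used strand is not given in the sources used here.

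Rxrg (Entrez ID 20183, a protein-coding gene at chr1:167598362-167639623 of GRCm38.p6 in RefSeq) encodes RXR gamma, known chiefly from muscle and brain. It had 14.3, 19.3, 18.9 and 23.1 CPM in weight loss libraries. In obese libraries it had 12.0, 11.5, 19.6, 10.8 and 18.1 CPM, and in lean libraries 16.3, 23.2, 25.5, 27.1 and 30.5 CPM. Here the groups overlapped: obese replicates 3 and 5 lay above lean replicate 1. Rxrg averaged 18.9 ± 3.58 CPM after weight loss, 14.4 ± 4.11 CPM in obese fat and 24.5 ± 5.31 CPM in lean fat (SD, n = 4, 5 and 5). In obese fat it fell to 0.587 times the lean level, a log2 change of -0.77 ± 0.21 (edgeR adjusted p = 0.0324, exact two-sided permutation p = 0.0238 with 0.00794 the smallest possible).

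**Figure D3:**
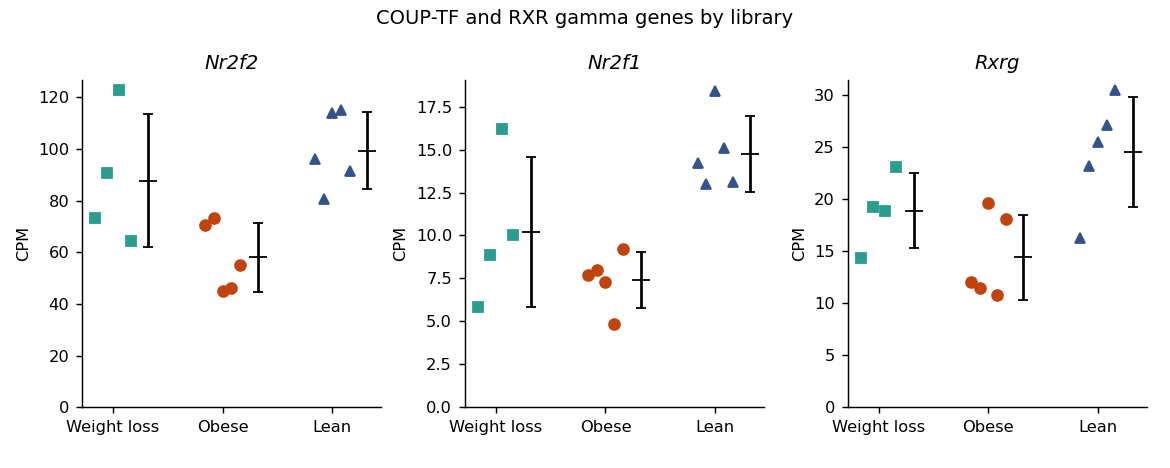
CPM of Nr2f2, Nr2f1 and Rxrg, 1 point per library, with mean and SD beside each group (4 weight loss, 5 obese and 5 lean libraries). For Nr2f2 and Nr2f1 the obese points lie below all lean points, at means of 58.0 and 7.40 CPM against 99.3 and 14.8 CPM, while Rxrg overlaps.

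A promoter window of each of the 3 genes is shown because their RNA fell together and because many of the receptors bind copies of the half-site AGGTCA. Each window runs from 250 bases before to 50 bases after a RefSeq gene start on GRCm38.p6, 5′ to 3′ on the gene's strand, and capitals mark AGGTCA on either strand. They are Nr2f2 at chr7:70366697-70366996 on the minus strand, Nr2f1 at chr13:78198824-78199123 on the minus strand, and the downstream one of the Rxrg starts listed, at chr1:167618015-167618314 on the plus strand.
Nr2f2: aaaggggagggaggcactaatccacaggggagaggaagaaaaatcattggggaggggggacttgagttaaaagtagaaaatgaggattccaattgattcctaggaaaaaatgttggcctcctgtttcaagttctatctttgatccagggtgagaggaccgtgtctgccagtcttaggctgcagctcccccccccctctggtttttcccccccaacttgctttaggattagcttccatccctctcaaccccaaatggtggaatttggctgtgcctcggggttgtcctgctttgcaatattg
Nr2f1: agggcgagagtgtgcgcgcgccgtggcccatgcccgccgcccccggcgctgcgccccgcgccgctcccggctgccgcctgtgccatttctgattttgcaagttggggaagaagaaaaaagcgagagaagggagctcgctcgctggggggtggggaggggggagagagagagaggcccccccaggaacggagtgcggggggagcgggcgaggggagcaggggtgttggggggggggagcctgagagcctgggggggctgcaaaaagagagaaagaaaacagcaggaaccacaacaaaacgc
Rxrg: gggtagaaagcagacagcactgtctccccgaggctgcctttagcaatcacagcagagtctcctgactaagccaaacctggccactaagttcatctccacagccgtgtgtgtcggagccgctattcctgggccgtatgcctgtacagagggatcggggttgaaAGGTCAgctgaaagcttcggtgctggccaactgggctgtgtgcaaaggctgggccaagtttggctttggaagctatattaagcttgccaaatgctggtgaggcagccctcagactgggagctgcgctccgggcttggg

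The printed Rxrg window, at a start inside the gene, held 1 copy of AGGTCA. The window of the upstream Rxrg start, at chr1:167598112-167598411, where the gene as given above begins, held none. Which of the Rxrg starts is used in fat was not tested. Neither COUP-TF window printed held one, nor did that of a further Nr2f1 start at chr13:78196400-78196699. Of 55 windows for 37 of the receptor genes, 9 held the motif (16.4%), against 16.3% of all 32851 windows of the same length. The 9 windows belonged to Rxra, Rxrg, Rara, Rarg, Thrb, Nr1h4, Nr5a2, Nr6a1 and Nr0b1. A match of 6 letters is a description and not a binding site.

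Both other RXR genes also had fold changes below 0 in obese fat. Rxra had 342, 268, 263 and 315 CPM in weight loss libraries, 306, 268, 287, 245 and 307 CPM in obese libraries and 329, 465, 313, 328 and 357 CPM in lean libraries. All obese libraries were below all lean ones, a pattern that 4.31% of all genes and 3 of the 28 receptors (Nr2f2, Nr2f1 and Rxra) showed in that direction. The log2 value was -0.34 ± 0.12 (edgeR adjusted p = 0.0955), and DESeq2 put it past the threshold (adjusted p = 0.0450). Rxrb, which ranged between 46.1 and 69.9 CPM, gave -0.21 ± 0.13 (adjusted p = 0.356). Per kb, Rxra made up 70.8 ± 2.86% of the RXR RNA after weight loss, 72.8 ± 3.05% in obese fat and 71.5 ± 3.30% in lean fat, and Rxrg 10.8 ± 2.26%, 8.71 ± 1.81% and 11.8 ± 2.64% in the same order (SD, n = 4, 5 and 5).

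The retinoic acid receptors, which pair with RXR and switch genes on when bound by retinoic acid, did not pass the test. Rarg was the main form per kb, at 68.9 ± 2.21% of the RAR RNA after weight loss, 61.9 ± 5.00% in obese fat and 68.3 ± 3.59% in lean fat. It had 46.6 to 83.1 CPM in weight loss libraries, 37.6 to 58.8 CPM in obese libraries and 49.4 to 74.1 CPM in lean libraries. Between obese and lean fat the log2 values were -0.33 ± 0.18 for Rarg (adjusted p = 0.286), 0.05 ± 0.16 for Rara (0.772 unadjusted, 0.894 adjusted) and 0.30 ± 0.49 for Rarb (adjusted 0.758). Rara ranged between 19.7 and 34.1 CPM over all libraries. Rarb varied most of the 3, with 7.50 CPM in weight loss replicate 3 and 0.855 CPM in weight loss replicate 4, and 34.1% of its exon length overlaps Top2b on the other strand. Of 17 tested genes of retinoid handling and retinoic acid targets, 2 rose in obese fat and none fell. Of all genes 5.86% rose and 3.85% fell. Dhrs3, a retinaldehyde reductase, averaged 423 ± 21.6 CPM in obese fat and 315 ± 30.2 CPM in lean fat (SD, n = 5 each), a log2 change of 0.43 ± 0.10 with an edgeR adjusted p of 0.0185. Rarres2, which encodes chemerin, averaged 418 ± 110.3 CPM in obese fat and 268 ± 59.9 CPM in lean fat, a log2 change of 0.64 ± 0.19 (adjusted p = 0.0457). The median of the 17 was 0.05.

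Among steroid hormone receptors Nr3c1, the glucocorticoid receptor, was by far the most abundant, at 95.02 ± 2.39% of the RNA of the 5 steroid receptor genes per kb after weight loss, 94.5 ± 0.522% in obese fat and 93.0 ± 2.32% in lean fat. It had 82.9, 83.3, 135 and 66.8 CPM in weight loss libraries, 82.0, 76.9, 59.8, 47.5 and 69.2 CPM in obese libraries and 78.9, 111, 134, 67.2 and 59.7 CPM in lean libraries. The groups overlapped, and the obese to lean log2 value of -0.43 ± 0.24 did not pass (adjusted p = 0.30, interval at 95% of -0.94 to 0.09). Of 19 genes of glucocorticoid handling and targets, 2 rose and 2 fell in obese fat, against 5.86% and 3.85% of all genes. The median of the 19 was -0.10. Pdk4, a brake on pyruvate oxidation, averaged 48.8 ± 8.95 CPM in obese fat and 22.8 ± 7.18 CPM in lean fat (log2 1.09 ± 0.30, edgeR adjusted p = 0.0355). Hsp90aa1, a chaperone of unliganded steroid receptors, changed by 0.49 ± 0.15 (adjusted p = 0.0470). Per1, a clock gene that glucocorticoids induce, changed by -0.71 ± 0.15 (adjusted p = 0.00972), and Klf15, a transcription factor of adipocyte metabolism, by -0.85 ± 0.21 (adjusted p = 0.0198).

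Esr1, the alpha estrogen receptor, had 8.30, 7.37, 3.93 and 3.31 CPM in weight loss libraries, 5.88, 4.50, 3.69, 2.62 and 3.74 CPM in obese libraries and 7.31, 10.1, 4.29, 5.50 and 5.53 CPM in lean libraries. Only obese replicates 1 and 2 reached into the lean range, and the log2 value was -0.68 ± 0.32 (edgeR adjusted p = 0.201). Nr3c2, the mineralocorticoid receptor, had between 0.214 and 1.30 CPM in weight loss libraries, 0.282 and 1.08 CPM in obese libraries and 0.469 and 2.98 CPM in lean libraries, with the highest value in lean replicate 2 (obese against lean log2 -0.75 ± 0.63, adjusted p = 0.521). Without that library the Nr3c2 value was 0.07 ± 0.56 (adjusted p = 0.959). Of 9 tested genes of estrogen and progesterone handling, 1 fell in obese fat, against 3.85% of all genes. This was Pgrmc2, a membrane heme-binding protein, at 229 ± 20.9 CPM in obese fat and 305 ± 42.3 CPM in lean fat (log2 -0.41 ± 0.11, edgeR adjusted p = 0.0354).

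Esrra, the estrogen-related receptor that drives mitochondrial genes and binds no known estrogen, had 39.5, 38.4, 33.6 and 52.5 CPM in weight loss libraries. In obese libraries it had 37.7, 30.1, 36.6, 34.6 and 60.9 CPM, and in lean libraries 53.1, 62.2, 39.95, 60.5 and 58.6 CPM. Obese replicate 5 lay inside the lean range and the other obese libraries lay below all lean ones. The log2 value was -0.46 ± 0.19 (edgeR adjusted p = 0.147), and without obese replicate 5 it was -0.69 ± 0.16 (adjusted p = 0.0184). Of 11 oxidative targets of this receptor none fell and 1 rose, against 3.85% and 5.86% of all genes. The median of the 11 was 0.03, and the gene that rose was Pdk4, which is also on the glucocorticoid list. The Esrra coactivator Ppargc1b averaged 2.76 ± 0.817 CPM in obese fat and 9.19 ± 2.89 CPM in lean fat, a log2 change of -1.73 ± 0.34 (adjusted p = 0.00600). Ncoa1, the steroid receptor coactivator SRC-1, averaged 57.6 ± 7.67 CPM in obese fat and 80.2 ± 12.6 CPM in lean fat, a log2 change of -0.48 ± 0.13 (adjusted p = 0.0280). These were the 2 that fell among 20 coregulator genes, none of which rose, where 3.85% of all genes fell and 5.86% rose. The median of the 20 was -0.27, where all genes had -0.02.

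The thyroid hormone receptors were near each other in level, with Thra at 51.2 ± 13.2% of their RNA per kb after weight loss, 52.5 ± 6.04% in obese fat and 58.9 ± 11.8% in lean fat. Thra had 11.7 to 23.4 CPM in weight loss libraries, 13.6 to 18.9 CPM in obese libraries and 14.3 to 34.3 CPM in lean libraries. Its log2 value of -0.49 ± 0.24 did not pass (edgeR adjusted p = 0.221). The clock gene Nr1d1 overlaps 5.70% of the Thra exon length on the other strand and was lower in every obese library than in every lean one, at 197 to 286 CPM in obese libraries and 352 to 519.7 CPM in lean libraries, and the part of such reads in Thra was not tested. Thrb ranged between 19.2 and 38.5 CPM over all libraries and gave -0.09 ± 0.20 (adjusted p = 0.835). Of 12 tested genes of thyroid hormone handling and targets, 1 rose and 1 fell in obese fat. Of all genes 5.86% rose and 3.85% fell, and the median of the 12 was -0.19. Hr, a corepressor that thyroid hormone induces in brain, averaged 103 ± 26.9 CPM in obese fat and 30.7 ± 9.14 CPM in lean fat (log2 1.74 ± 0.26, edgeR adjusted p = 0.00109). Slc2a4, the insulin-responsive glucose transporter, averaged 204 ± 19.2 CPM in obese fat and 339.6 ± 54.3 CPM in lean fat, a log2 change of -0.73 ± 0.13 (adjusted p = 0.00348).

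The remaining receptors did not pass the test in obese against lean fat. Nr4a1, an orphan receptor induced within minutes of stimulation, had 8.87 to 17.3 CPM in weight loss libraries, 10.4 to 20.6 CPM in obese libraries and 7.59 to 15.8 CPM in lean libraries (obese against lean log2 0.43 ± 0.26, edgeR adjusted p = 0.326). Beside it, 2 of 9 tested immediate early genes, Fos and Fosb, rose in obese fat, against 5.86% of all genes. The 10 genes of that list summed to 159.8 to 229 CPM in weight loss libraries, 176 to 289 CPM in obese libraries and 143 to 175 CPM in lean libraries. The part of these genes' spread in the Nr4a1 values was not tested. Nr4a2, its relative, ranged between 0.262 and 1.83 CPM over all libraries and gave -0.29 ± 0.52 (adjusted p = 0.784). Ppard, the widely expressed PPAR, ranged between 24.8 and 50.5 CPM and gave -0.23 ± 0.16 (adjusted p = 0.40). Nr1h4, the bile acid receptor FXR, ranged between 0.426 and 3.16 CPM and gave 0.20 ± 0.40 (adjusted p = 0.809). Nr2f6, the COUP-TF relative with the highest level per kb, ranged between 46.8 and 78.1 CPM and gave -0.08 ± 0.13 (adjusted p = 0.753, interval at 95% of -0.37 to 0.20), though 54.4% of its exon length lies under Ocel1 on the other strand. Vdr, the vitamin D receptor, gave 0.47 ± 0.33 (adjusted p = 0.422), and none of the 4 tested vitamin D genes passed in any comparison. Rora gave -1.05 ± 0.79 (adjusted p = 0.459) at 2 to 53 counts per library. Without lean replicate 2, the library with the most Rora, it was -0.33 ± 0.77 (adjusted p = 0.846), and with the epididymis level as covariate -0.42 ± 0.71 (adjusted p = 0.784). The other receptors past the filter with fold changes not given elsewhere, Nr2c1, Nr2c2, Esrrg, Nr5a2 and Nr6a1, lay between -0.25 and 0.34 (adjusted p = 0.721 to 0.995), and 30.7% of the Nr2c2 exon length overlaps Mrps25 on the other strand.

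Some markers of other cells moved with the same contrast, and others did not. Of all genes 5.86% rose and 3.85% fell in obese fat. Of 10 macrophage markers 8 rose in obese fat, at a sum of 1007 to 1559 CPM in obese libraries and 451 to 999.9 CPM in lean libraries, with no overlap. Of 8 fibroblast and progenitor markers 3 rose (Ly6a, Pi16 and Cd34), at 1319.7 to 1939 CPM in obese libraries and 815 to 1687 CPM in lean libraries, and of 8 tested mesothelial markers 1 rose (Msln). Of the 8 adipocyte markers 1 fell (Cfd), at a sum of 20097 to 26701 CPM in obese libraries and 24297 to 37143 CPM in lean libraries. The 7 smooth muscle and pericyte markers summed to 485 to 1610.3 CPM in obese libraries and 353 to 4207 CPM in lean libraries, and 0 of the 6 tested passed, with a median log2 value of -0.73. Of 8 endothelial markers 0 passed, with a median log2 value of 0.04. Their sum was 1053 to 1276 CPM in obese libraries and 905 to 1461 CPM in lean libraries. Of 8 T and B lymphocyte markers 0 passed as well, with a median of 0.25. They summed to 7.51 to 27.7 CPM in obese libraries and 13.3 to 29.2 CPM in lean libraries. The part of these cell markers in the fall of Nr2f2, Nr2f1 and Rxrg was not tested.

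The calls depended on how the epididymal signal was treated. With its level as a covariate 0 of the 28 receptors passed (5 at an unadjusted p under 0.05), with log2 values of -0.72 ± 0.21 for Nr2f2, -0.98 ± 0.28 for Nr2f1 and -0.71 ± 0.25 for Rxrg (adjusted p = 0.0591, 0.0569 and 0.115). Without the 4 richest libraries, which left 2 obese and 4 lean ones, again 0 passed (4 at an unadjusted p under 0.05), at -0.79 ± 0.28, -0.99 ± 0.36 and -0.75 ± 0.25 (adjusted p = 0.246, 0.254 and 0.217). The fold changes stayed close to those with all libraries, while their standard errors were larger. Of the 11 coregulator, ligand and target genes named above as changed in obese fat, all kept their direction in both fits, but 6 passed with the covariate (Hr, Ppargc1b, Slc2a4, Per1, Pdk4 and Dhrs3) and 1 without the 4 libraries (Hr), a check added after the data were seen. Without obese replicate 4 only Nr2f1 passed (adjusted p = 0.0498), with Nr2f2 at 0.0536 and Rxrg at 0.0801.

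**Figure D4:**
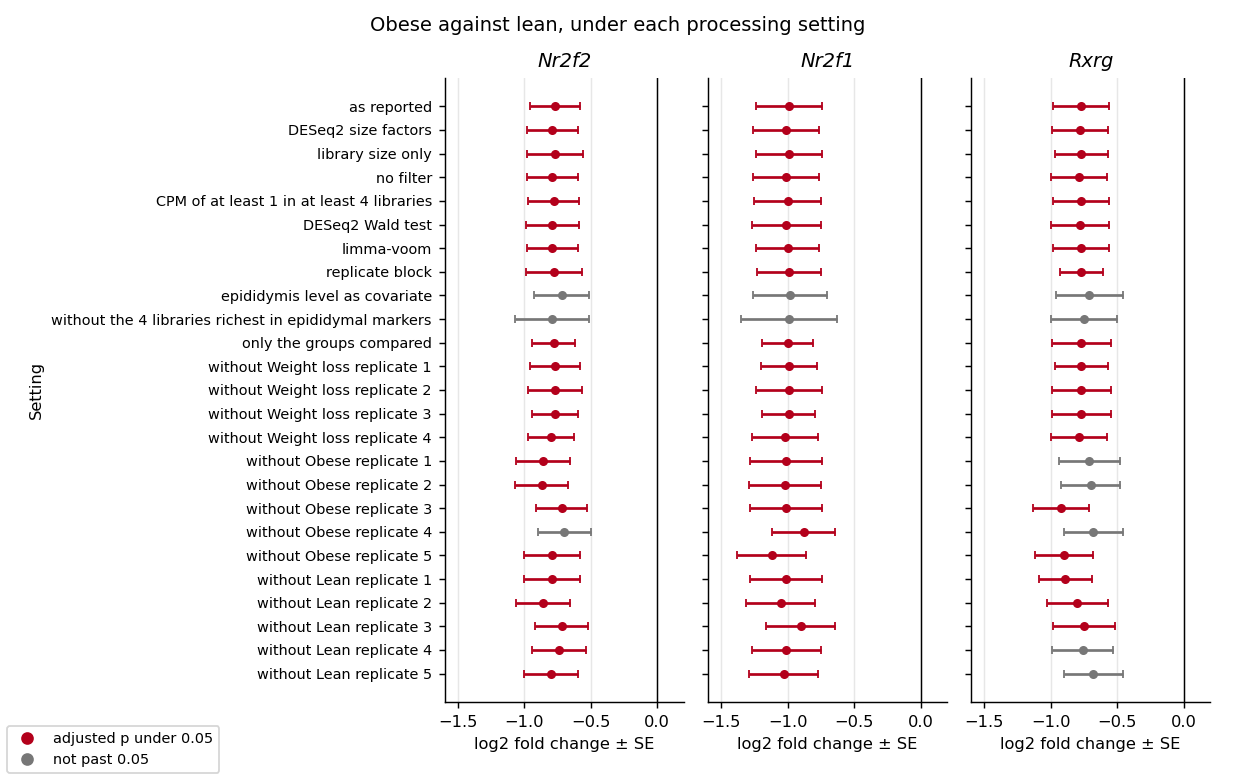
Obese to lean log2 fold change ± SE of Nr2f2, Nr2f1 and Rxrg as reported and under each of 24 other settings, red where the adjusted p is under 0.05 and grey otherwise. All points lie below 0, between -1.12 and -0.68, and the grey ones include both settings on epididymal markers for all 3 genes.

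The comparison of weight loss with obese fat addresses the return to chow. None of the 28 receptors passed edgeR's test, against 1.62% of all genes, and 1 had an unadjusted p under 0.05 (Nr2f2), against 14.3% of all genes. DESeq2 and limma-voom also called 0. Nr2f2 gave a log2 value of 0.60 ± 0.20 (adjusted p = 0.169), with weight loss replicates 2 and 3 above all obese libraries and replicates 1 and 4 inside or level with the obese range, and its exact two-sided permutation p over 126 arrangements was 0.0635. Nr2f1 gave 0.47 ± 0.26 (adjusted p = 0.453, exact permutation p = 0.286) and Rxrg 0.39 ± 0.22 (adjusted p = 0.463, exact permutation p = 0.127). Nr3c1 gave 0.46 ± 0.25 (adjusted p = 0.455), Esr1 0.49 ± 0.33 (0.574), Rarg 0.33 ± 0.19 (0.468), Rxra 0.07 ± 0.13 (0.871) and Esrra 0.04 ± 0.20 (0.965). The other 20 receptors lay between -0.28 and 0.47 (adjusted p = 0.727 to 0.997). The median of the 28 was 0.10, with 6 below 0, and that of all genes 0.02, with 47.1% below 0. The comparison shares its obese libraries with obese against lean fat, so the opposite signs of the receptors are not independent of each other.

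Around the receptors, 1 of 17 tested retinoid genes and 1 of 12 tested thyroid hormone genes passed in this comparison, against 1.62% of all genes. Aldh1a7, an aldehyde dehydrogenase of the retinaldehyde family, fell to 66.9 ± 31.7 CPM in weight loss fat, against 156 ± 23.1 CPM in obese fat (log2 -1.22 ± 0.27, edgeR adjusted p = 0.0336, SD, n = 4 and 5). Slc16a10, a transporter of aromatic amino acids and thyroid hormone, rose to 78.9 ± 5.02 CPM in weight loss fat, against 55.5 ± 4.33 CPM in obese fat (log2 0.51 ± 0.12, edgeR adjusted p = 0.0470). No gene of the coregulator, glucocorticoid, estrogen, oxidative target or vitamin D lists passed. Neither Aldh1a7 nor Slc16a10 passed with the epididymis level as covariate or without the 4 richest libraries, though both kept their direction.

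The comparison of weight loss with lean fat addresses whether the receptors were back at chow levels. None of the 28 passed edgeR's test, against 0.0329% of all genes, and 1 had an unadjusted p under 0.05 (Vdr), against 11.4% of all genes. DESeq2 and limma-voom called 0 as well. Vdr had 4.52, 3.76, 4.38 and 5.07 CPM in weight loss libraries and 4.64, 1.35, 2.17, 1.27 and 3.48 CPM in lean libraries, with lean replicate 1 inside the weight loss range (log2 0.77 ± 0.35, adjusted p = 0.423). The interval at 95% of the difference was -0.61 to 0.25 for Nr2f2, -1.08 to 0.03 for Nr2f1 and -0.85 to 0.10 for Rxrg, around log2 values of -0.18, -0.53 and -0.38 (adjusted p = 0.770, 0.459 and 0.542). For Nr2f1 and Rxrg these intervals still hold differences as large as those of obese against lean fat, so equal levels were not shown. The other 24 receptors lay between -1.28, for Nr5a1, and 0.61, for Nr1h4 (adjusted p = 0.447 to 0.994). The median of the 28 was -0.10, with 17 below 0, and that of all genes was 0.00 with 49.5% below 0. No gene of the 7 pathway lists passed in this comparison.

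Hnf4a and Nr5a1 varied widely between libraries of 1 group, beside marker genes of cells that are not adipocytes. Hnf4a, a receptor of liver, gut and kidney epithelium, had 1.92, 20.1, 10.03 and 20.5 CPM in weight loss libraries. It had 9.16, 10.9, 7.81, 7.02 and 14.2 CPM in obese libraries and 26.8, 0, 9.31, 7.71 and 15.2 CPM in lean libraries. The groups overlapped (obese against lean log2 -0.27 ± 0.78, edgeR adjusted p = 0.874), and the value was 0.29 ± 0.80 without lean replicate 1 and -0.59 ± 0.52 without lean replicate 2 (adjusted p = 0.873 and 0.541). The 0 in lean replicate 2 allows up to 0.213 CPM (3 counts, counting error only). A sum of 10 motile cilium genes, chosen after the values were seen, was 34.8, 264, 130 and 345 CPM in weight loss libraries, 117, 142, 126, 93.6 and 188 CPM in obese libraries and 348, 8.87, 149, 93.0 and 285 CPM in lean libraries. No library moved by more than 2 places between the 14 ranks of Hnf4a and those of this sum, and weight loss replicate 1 and lean replicate 2 were lowest in both. The 7 hepatocyte markers summed to 31.8 CPM at most. The part of ciliated cells in the Hnf4a values was not tested.

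Nr5a1, the steroidogenic factor of gonad and adrenal, had 0.427 to 1.52 CPM in weight loss libraries and 0.217 to 1.91 CPM in obese libraries. In lean libraries it had 1.25, 0.0709, 1.08, 0.536 and 7.80 CPM. Only lean replicate 5 stood out (obese against lean log2 -1.30 ± 0.85, edgeR adjusted p = 0.384), with 110 counts, and there the 8 steroidogenic markers summed to 213 CPM, against at most 35.1 CPM in every other library. Without lean replicate 5 the Nr5a1 value was 0.20 ± 0.70 in obese against lean fat (adjusted p = 0.914) and 0.22 ± 0.74 in weight loss against lean fat (adjusted p = 0.959). Insl3, a Leydig cell hormone, reached at most 9.72 CPM in weight loss libraries and 11.0 CPM in obese libraries, and 156 CPM in lean replicate 5. Nr0b1, the partner repressor of Nr5a1, had 8 of its 15 counts in lean replicate 5. It had 6 in lean replicate 1, where the steroidogenic markers summed to 23.5 CPM. The part of steroidogenic cells in these values was not tested.

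**Figure D5:**
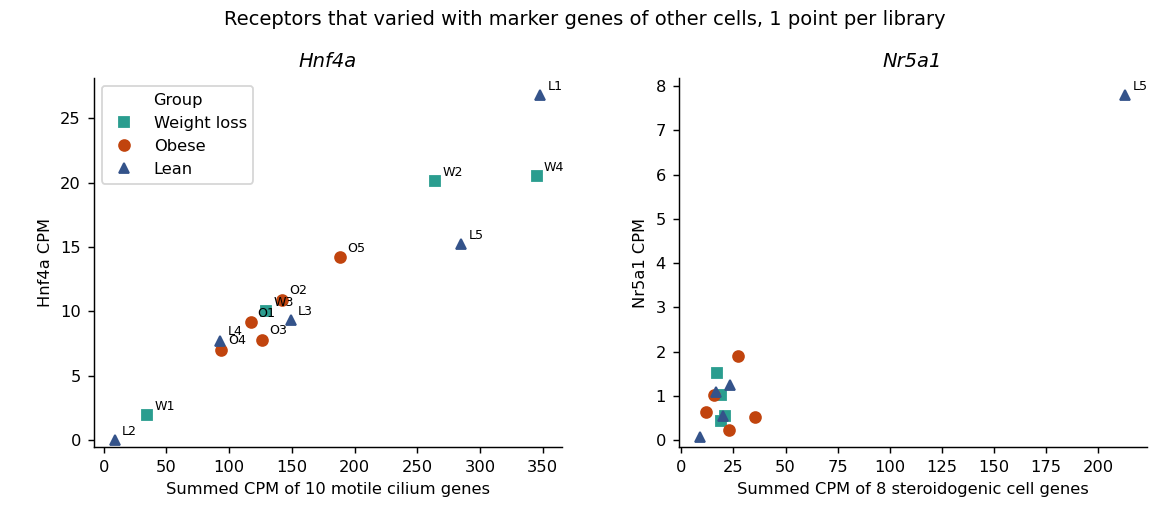
CPM of Hnf4a against the summed CPM of 10 motile cilium genes and of Nr5a1 against that of 8 steroidogenic genes, 1 point per library (W weight loss, O obese, L lean, with the replicate number). Hnf4a is lowest in L2 (0 CPM) and W1 (1.92 CPM), where the cilium sum is lowest too, and Nr5a1 is high only in L5, at 7.80 CPM.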

How the data were processed

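Poly(A) RNA of perigonadal fat was measured in 15 libraries. The deposited table holds expected counts, not normalized, in 36172 lines with 35794 Entrez IDs, and 34.8% of its values are not whole. Counts were summed per Entrez ID and then rounded. The genome build was mm10, per the submitters' processing notes. No aligner, counting tool or strand setting is given in the sources used here. Symbols came from RefSeq for 32919 IDs. Libraries under 1000000 counts were left out. A single model of the 3 groups was fitted to genes past filterByExpr, with TMM factors and edgeR 4.0.16 (glmQLFit, glmQLFTest, two-sided) in R 4.3.3. The standard error is the fold change (log2, without sign) divided by the root of the F value, and intervals use the t distribution with the degrees of freedom of that test. Replicate numbers come from the labels: 4 of 13 same-numbered pairs of libraries had deviations from their group means that correlated above 0.1 (range -0.553 to 0.399), so the numbers were not taken as pairs. Alternatives were other scalings and filters, DESeq2 1.42.0, limma-voom (limma 3.58.1), the groups compared only, the replicate block, the epididymis level as covariate, removal of the 4 libraries richest in it, and each library left out. Named genes were the called receptors, 24 receptors taken in every case and up to 4 called genes per pathway list and comparison; others named were chosen after their values were seen. The receptors, gene lists and alternatives were chosen with earlier results of these data known. Gene positions, promoters and their starts are from RefSeq (GRCm38.p6), and exon lengths and overlaps from GENCODE M21.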

Additional observations from a re-analysis of the deposited data

Results flagged for a closer look

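Each of the 28 receptors was looked at within each of the 3 groups for a library far from the others, by Dixon's ratio of gap to range at its 95% critical value. Of 84 groups of values 4 were marked, where chance marks about 1 in 20. Nr1h4 was at 2.94 CPM in obese replicate 1, and the next obese library was at 1.79 CPM. Esrra was at 60.9 CPM in obese replicate 5, with the next at 37.7 CPM; its edgeR adjusted p in obese against lean fat was 0.147 with this library and 0.0184 without it. Nr3c2 was at 2.98 CPM in lean replicate 2, with the next at 0.638 CPM, and without it the obese to lean value was 0.07 on the log2 scale, against -0.75 with it; the same library had the highest level of Rora (3.76 CPM) and of Lars2 (15811 CPM). Nr5a1 was at 7.80 CPM in lean replicate 5, with the next at 1.25 CPM, in the library with the highest sum of steroidogenic markers.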

How the results depend on the processing

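In obese against lean fat the 3 receptor calls held under each other scaling, filter and tool, with only both groups fitted, and with the replicate number as a block (3 called, adjusted p = 0.0376 for Nr2f2, 0.0259 for Nr2f1 and 0.0165 for Rxrg). DESeq2 called 4, with Rxra added. The count fell to 0 with the epididymis level as covariate, and to 0 when the 4 libraries with the most epididymal RNA were removed. Leaving out each library in turn gave 1 to 4, with 1 (Nr2f1) without obese replicate 4 and 4, with Esrra added, without obese replicate 5. Rxrg was past the threshold in 9 of these 14 fits and was lost without obese replicate 1, 2 or 4 or lean replicate 4 or 5. Over 24 settings Nr2f1 was past it in 22, Nr2f2 in 21 and Rxrg in 17. Both weight loss comparisons had 0 receptor calls in every setting, the replicate block included, which changed no call. Of 1508 recomputed values of single receptors, 1486 kept their call and, apart from 72 fold changes that changed sign within their standard error, their direction, while 12 lost and 2 gained a call and 8 moved beyond the spread. Over all genes, edgeR called 1477 in obese against lean fat, DESeq2 2260, the covariate fit 943 and the fit without the 4 libraries 125. In weight loss against obese fat the counts were 246, 691, 38 and 20, and in weight loss against lean fat 5, 243, 2 and 0. Without weight loss replicate 4 the last comparison had 130. Depth limits the receptors at few counts: Rora, at 2 to 53 counts per library, had a standard error of 0.79 (log2) in obese against lean fat.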
